A study of Python bivittatus with 8 samples.

Results

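The heart of the Burmese python (Python bivittatus) grows after a large meal and shrinks again as digestion ends. This account follows 150 of 21368 genes whose transcripts stood higher in left ventricle 6 days after feeding than at any other time sampled, while they lay close to the fasted level 4 days after feeding. They were chosen by measured values. Expression was taken as log2(CPM + 1), where CPM is the gene's count divided by the library total and scaled to reads per 1000000, and averaged over the 2 libraries of each group. A gene was kept when its 6DPF mean was at least 2.5, at least 0.5 above the mean of every other group and its 4DPF mean was within 1.5-fold of the fasted mean on that scale. Both 6DPF libraries also had to lie above the other 6. A difference of 0.5 corresponds to 1.41-fold and the level of 2.5 to 4.66 CPM.

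The series comprises 8 poly-A RNA libraries from left ventricle of wild-type captive-bred snakes, 2 in each of 4 groups. All snakes were fasted for 28 days. The fasted group was sampled then, and the 1DPF, 4DPF and 6DPF groups (days post-fed) were sampled 1, 4 and 6 days after a rodent meal of 25% of body mass. The submitters describe 1DPF as the time of active growth, 4DPF as early and 6DPF as later regression. The labels state that 6 snakes of about 2 kg served the sequencing and the proteomics, which is below the number of libraries, and they do not link snakes to libraries. An n of 2 below therefore counts libraries, and the p-values measure the spread between them, which may be partly technical.

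Growth of the python heart after a meal is a reversible, physiological enlargement of existing muscle cells, driven in part by fatty acids and hormones in the blood. Its reversal calls on the pathways that limit growth in muscle generally. FoxO transcription factors, which insulin signalling holds out of the nucleus, switch on ubiquitin ligases and autophagy genes that break down muscle protein, and the proteasome and lysosome do the breaking down. Fed pythons also remodel gut, liver and kidney and send a flood of lipid and protein through the circulation. Transcripts that exceed the fasted level late in this cycle are thus of interest. Whether they mark a stage apart from the growth response and from a simple return was not tested. The deposited table lists genes by number only, so roles and cell types could not be assigned, and the defining markers of ventricle cells were not looked up. The genes are described by level, course, length and likeness to one another. In whole tissue, a change in the number of cells of a type and a change in RNA per cell cannot be told apart.

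Library totals ran from 33203808 to 42250755 counts, so 1 read stood for 0.0237 to 0.0301 CPM. Between 18349 and 18675 genes had a read in a library, and the most abundant gene held 1.77% to 2.84% of the reads. The smallest count of any of the 150 genes in any library was 15 reads and the smallest in a 6DPF library was 137, so counting error alone is small for nearly all of them. All 150 passed the filter on low counts, and all would have done so on libraries outside 6DPF.

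Of 11787 genes at the minimum 6DPF level, 270 had a 6DPF mean at least 0.5 above each other group. The bound on 4DPF removed 92 of these, and in 85 of the 92 the 4DPF mean lay above the fasted one. A further 28 were lost because a 6DPF library overlapped with another library, which left 150 genes, or 1.27% of those at the minimum level. Both 6DPF libraries lay above the other 6 in 8.48% of the genes at that level. The same share was 9.57% for the fasted libraries, 20.2% for those of 1DPF and 4.35% for those of 4DPF. A rule of the same form took 56 genes raised at 4DPF only and 27 genes lowered at 6DPF only. For the lowered genes the minimum level applied to the lowest of the other group means. On column totals the median tested gene stood 0.067 higher at 6DPF than 4DPF and 0.044 higher than fasted on the log2 scale. The counts of 56 and 27 were not repeated with other scalings, so no difference from the 150 is read. The thresholds cut through a continuum. The 3 genes nearest inside the margin of 0.5 had margins of 0.503, 0.504 and 0.505, and the 3 nearest outside had 0.499, 0.498 and 0.498. At the bound on 4DPF the nearest gene inside was 0.584 from the fasted mean and the nearest outside 0.621. At the minimum level the nearest gene inside stood at 2.5005 and the nearest outside at 2.4882, on the log2(CPM + 1) scale. The smallest gap between the lower 6DPF library and the highest other library was 0.037 among the 150, and the nearest gene outside had -0.012.

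The 150 genes together held 0.433% and 0.384% of the reads in the fasted libraries, 0.371% and 0.317% in those of 1DPF, 0.390% and 0.427% in those of 4DPF, and 0.750% and 0.876% in those of 6DPF. The median gene stood at 9.48 CPM when fasted, at 6.87 CPM in the 1DPF group, 9.81 CPM in the 4DPF group and 17.9 CPM in the 6DPF group. The median ratio of mean CPM was 1.92 for 6DPF over fasted, 2.45 for 6DPF over 1DPF and 1.82 for 6DPF over 4DPF. Over all 11787 genes at the minimum level these medians were 1.03, 1.01 and 1.05. The excess was modest in most of the 150 genes: 67 were at least 2-fold and 14 at least 3-fold above fasted, and 52 were at least 2-fold and 15 at least 3-fold above 4DPF. These sizes were set in part by the rule and are given as a description. The 4DPF level was 0.669 to 1.64 times the fasted level, with 77 of the 150 genes above and the others below.

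**Figure D1:**
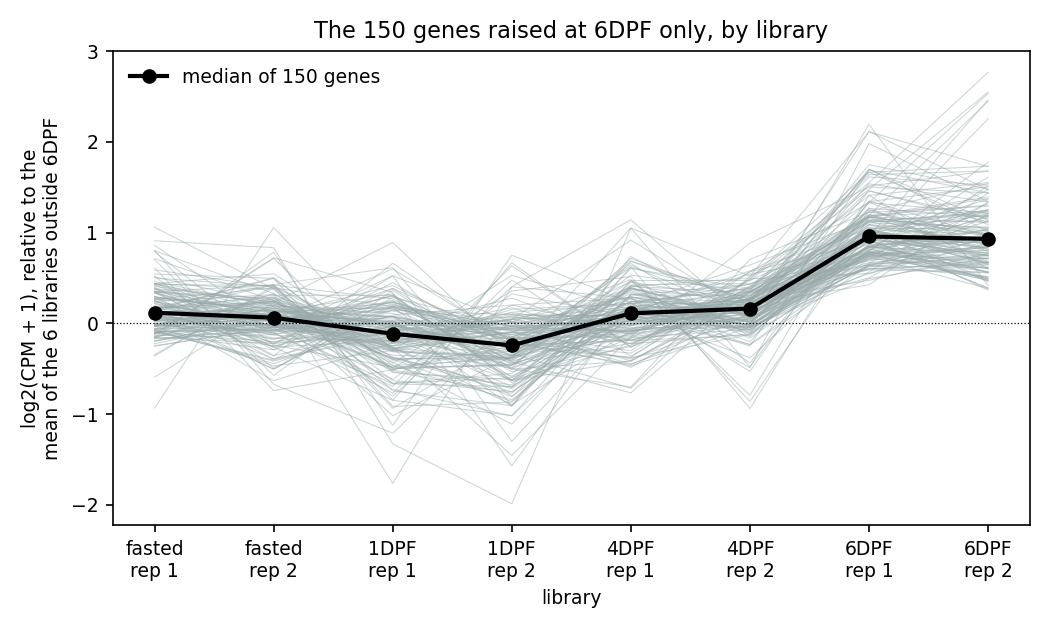
Values of the 150 genes in each of the 8 libraries (x axis), as log2(CPM + 1) minus the gene's mean over the 6 libraries outside 6DPF (y axis). Thin lines are genes and the thick line with points is their median, which stood at 0.96 and 0.93 in the 6DPF libraries and between -0.24 and 0.16 in the other 6.

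The rule required both 6DPF libraries to lie above the other 6 in each of the 150 genes. That both were high is therefore fixed by the choice of genes. Relative to the mean of the 6 libraries outside 6DPF, the median difference was 0.96 in 6DPF replicate 1 and 0.93 in 6DPF replicate 2 on the log2(CPM + 1) scale. The higher 6DPF library exceeded the lower one by a median factor of 1.19, against 1.16 over all genes at the minimum level. The factor was over 1.5 in 26 of the 150 genes (17.3%), against 12% of all genes at that level. In 8 genes it was 2 or more, and in 7 of those the higher library was replicate 2. The gap between the lower 6DPF library and the highest of the other 6 was at least 1 on the log2(CPM + 1) scale in 6 genes, at least 0.5 in 48 and under 0.1 in 10.

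Gene 103064779 had the widest such gap, at 1.31. It is 5026 bases long in the deposited table and had 30.7 and 32.8 CPM in the fasted libraries, 33.1 and 25.6 CPM in those of 1DPF, 31.4 and 35.4 CPM in those of 4DPF, and 108 and 89.2 CPM in those of 6DPF. The first 6 libraries span 25.6 to 35.4 CPM and the 6DPF libraries lie far above that band. The mean at 6DPF was 98.4 ± 13.1 CPM (SD, n = 2), which is 3.10 times the fasted mean of 31.8 ± 1.43 CPM (SD, n = 2), 3.36 times the 1DPF mean and 2.94 times the 4DPF mean. Its log2 change at 1DPF against fasted was -0.15 (SE 0.14) and did not pass the test (edgeR adjusted p = 0.484).

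Gene 103055246 had the most reads at 6DPF. It is 2578 bases long and had 616 and 479 CPM in the fasted libraries, 553 and 440 CPM in those of 1DPF, 373 and 510 CPM in those of 4DPF, and 716 and 947 CPM in those of 6DPF. Unlike the gene above, it varied widely among the first 6 libraries, and the lower 6DPF library was only 0.22 above the highest of them on the log2(CPM + 1) scale. Its mean was 831 ± 163 CPM at 6DPF and 547 ± 97.1 CPM in fasted ventricle (SD, n = 2 each), a ratio of 1.52. Per kilobase of length it stood at 322 CPM at 6DPF, where the 150 genes ranged from 0.708 to 799. Their median was 9.12, against a median of 9.31 over all genes at the minimum level.

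**Figure D2:**
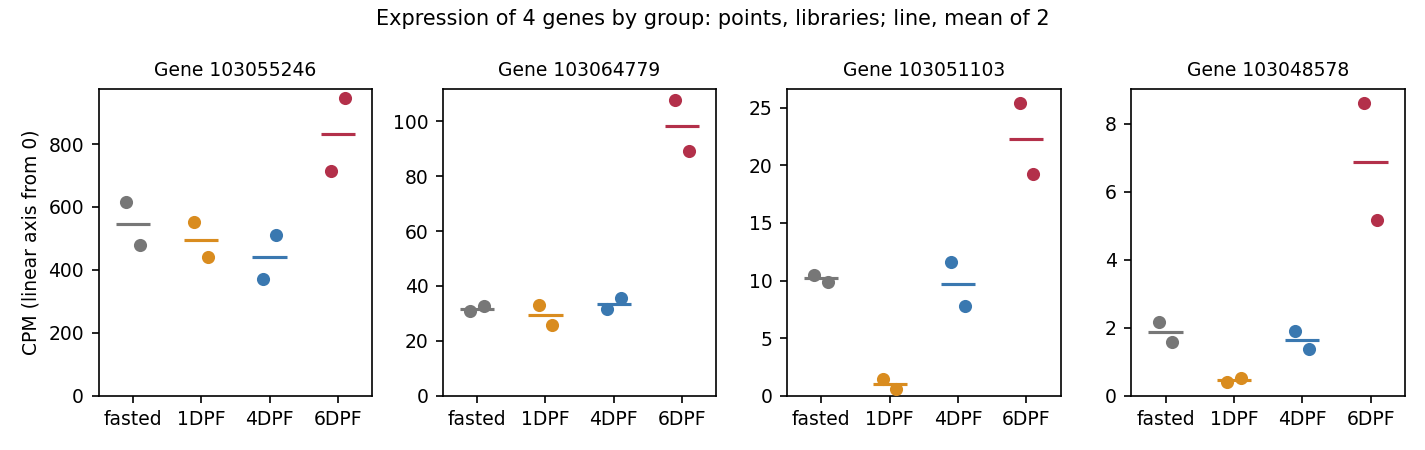
CPM (y axes, linear from 0) of 4 genes in the 4 groups (x axes). Points are the 2 libraries of a group and short lines their mean. Gene 103064779 lies between 25.6 and 35.4 CPM until 6DPF, where its libraries are at 108 and 89.2 CPM, and genes 103051103 and 103048578 dip at 1DPF before they exceed the fasted level.

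The 3 largest margins belonged to short and abundant transcripts whose levels moved together from library to library. The gene with the largest margin, 2.04 on the log2(CPM + 1) scale, is 605 bases long. It had 72.4 and 66.5 CPM in the fasted libraries, 81.6 and 46.9 CPM in those of 1DPF, 57.1 and 96.3 CPM in those of 4DPF, and 202 and 470 CPM in those of 6DPF. Among 12402 genes with a group mean of at least 2.5, 3 others had a Pearson correlation of at least 0.98 with it over the 8 libraries, and all 3 are among the 150. They are 877, 428 and 613 bases long, with r of 0.996, 0.995 and 0.981. This correlation is a description of 8 libraries in which the rule already fixed the 2 highest. The 4 genes were singled out after their values were seen. An r of at least 0.98 was not confined to the 150. With gene 103064779, genes of 1828 and 1368 bases among the 150 reached it, as did genes of 2372 and 5744 bases outside the 150. The latter varied only 1.45-fold and 1.20-fold in CPM over the 8 libraries, so such an r does not by itself mark a set.

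In order of correlation with the gene of largest margin, the next gene, 3128 bases long, had an r of 0.971. Together the 4 short genes took 422 and 425 CPM in the fasted libraries, 501 and 262 CPM in those of 1DPF, 338 and 558 CPM in those of 4DPF, and 1048 and 2398 CPM in those of 6DPF. Each was between 3.30 and 4.84 times higher at 6DPF than fasted. Each also differed between replicates within a group: by a factor of 1.09 to 1.14 in the fasted group, 1.74 to 1.96 at 1DPF, 1.60 to 1.69 at 4DPF and 2.11 to 2.39 at 6DPF. The higher library was replicate 1 at 1DPF and replicate 2 at 4DPF and 6DPF in all 4. Per kilobase they were the most abundant of the genes described here, at 556 to 799 CPM at 6DPF. Without these 4 genes the remaining 146 summed to 6455 and 6364 CPM at 6DPF, and to between 2907 and 3905 CPM in the other 6 libraries.

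A second close-knit set held 3 genes of 909, 911 and 1014 bases. The 1014-base gene had the third widest gap, and the other 2 correlated with it at r = 0.993 and 0.987, while the next gene in the table reached 0.949. The 1014-base gene had 19.6 and 14.1 CPM in the fasted libraries, 8.49 and 21.5 CPM in those of 1DPF, 11.6 and 20.3 CPM in those of 4DPF, and 45.2 and 50.7 CPM in those of 6DPF. The 6DPF libraries agree well here, whereas the 1DPF libraries differ 2.53-fold. The 3 genes summed to 57.1 and 41.8 CPM in the fasted libraries, 26.3 and 72.3 CPM in those of 1DPF, 37.6 and 60.5 CPM in those of 4DPF, and 147 and 150 CPM in those of 6DPF. All 3 were 2.85 to 3.14 times higher at 6DPF than fasted. Whether reads of like sequences were shared among the genes of either set was not tested, as the table holds no sequence.

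**Figure D3:**
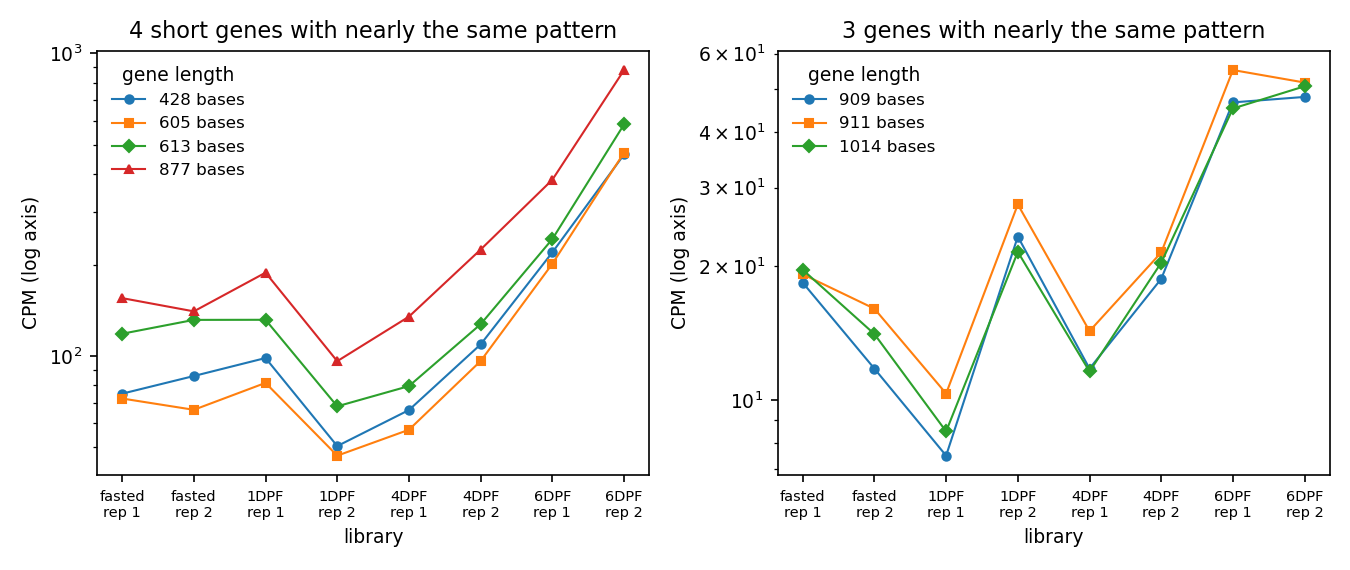
CPM (y axes, log scale) of 4 short genes (left) and 3 genes (right) in the 8 libraries (x axes), each line a gene marked by its length in bases. On the left 6DPF replicate 2 is 2.11 to 2.39 times 6DPF replicate 1, and on the right the 6DPF libraries are nearly level while 1DPF replicate 2 exceeds 1DPF replicate 1.

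The other 4 genes whose 6DPF libraries differed by 2-fold or more were all less abundant. A gene of 2825 bases had the highest ratio of 6DPF over fasted among the 150, at 5.60, with 3.24 and 11.04 CPM at 6DPF and a mean of 1.28 CPM in fasted ventricle. A gene of 2597 bases stood at 6.60 and 18.4 CPM at 6DPF, with a fasted mean of 3.29 CPM. A gene of 2123 bases was the only one of the 8 that was higher in 6DPF replicate 1, at 15.8 against 3.90 CPM in replicate 2, and its lower library was just 0.078 above the highest library outside 6DPF. The ratios of these genes rest largely on 1 of the 2 libraries.

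The course of these genes at 1DPF, the time of active growth, is described by the comparison with fasted ventricle. The rule used both levels. A 1DPF mean had to stay at least 0.5 below 6DPF, which keeps out most genes that were clearly higher at 1DPF. The lack of higher calls and the balance of signs are thus fixed in part by the choice of genes, and the shares over all tested genes, which were not chosen in this way, are given as background from which no difference is read. Of the 150 genes, 29 (19.3%) were lower at 1DPF than fasted (edgeR quasi-likelihood test, adjusted p under 0.05 over 16986 genes), where 9.66% of all tested genes were. None was called higher, where 9.58% of all tested genes were, and 0 had an unadjusted p under 0.05 in that direction. DESeq2 called 33 lower and 0 higher, and its shares over all tested genes were not counted. The median log2 change was -0.27 over the 150 genes and -0.0045 over all tested genes. The change was negative in 119 of the 150 (79.3%), against 50.3% of all tested genes. The count of 29 fell when either fasted library or either 1DPF library was left out. The share of all tested genes called in those fits was not counted, so this fall is not read as particular to the 150.

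Both 1DPF libraries lay below the other 6 in 50 of the 150 genes (33.3%), and in 14.6% of the genes at the minimum level. The shares are not comparable, as the rule had already given the highest places to the 6DPF libraries in all 150 genes. The 2 deepest dips are examples. Gene 103051103, 1715 bases long, had 10.5 and 9.89 CPM in the fasted libraries, 1.43 and 0.541 CPM in those of 1DPF, 11.7 and 7.76 CPM in those of 4DPF, and 25.4 and 19.2 CPM in those of 6DPF. Its 1DPF libraries are far below all others, its 4DPF libraries surround the fasted ones and its 6DPF libraries exceed them all. The log2 change at 1DPF against fasted was -3.42 (SE 0.39, edgeR adjusted p = 0.00202), and at 4DPF against 1DPF it was 3.36 (SE 0.39, edgeR adjusted p = 0.0122). The mean at 6DPF was 22.3 ± 4.36 CPM and in fasted ventricle 10.2 ± 0.417 CPM (SD, n = 2 each), a ratio of 2.19.

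Gene 103048578, 1644 bases long, had 2.17 and 1.59 CPM in the fasted libraries, 0.406 and 0.517 CPM in those of 1DPF, 1.90 and 1.37 CPM in those of 4DPF, and 8.62 and 5.16 CPM in those of 6DPF. The 1DPF libraries again lie below and the 6DPF libraries above all others. Its log2 change was -2.04 (SE 0.38, edgeR adjusted p = 0.0115) at 1DPF against fasted and 1.85 (SE 0.38, edgeR adjusted p = 0.0362) at 4DPF against 1DPF. At 6DPF it averaged 6.89 ± 2.44 CPM and in fasted ventricle 1.88 ± 0.41 CPM (SD, n = 2 each), a ratio of 3.67. At 1DPF its counts were 15 and 21 reads, so its level there is the least precise of the 4 genes given by number. Both of its calls missed the threshold without 1DPF replicate 1 (edgeR adjusted p = 0.0563 at 1DPF against fasted and 0.118 at 4DPF against 1DPF), and so did the fall at 1DPF without fasted replicate 1 (edgeR adjusted p = 0.0639). The rise at 4DPF also missed it when any other single library of the fasted, 1DPF and 4DPF groups was left out (edgeR adjusted p between 0.0601 and 0.129), with the same sign each time.

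The 29 genes that dipped at 1DPF had group medians of 15.0 CPM (fasted), 6.23 CPM (1DPF), 12.6 CPM (4DPF) and 29.2 CPM (6DPF). Their log2 change at 1DPF ran from -3.42 to -0.59. For the other 121 genes these medians were 8.07, 6.87, 8.18 and 17.5 CPM. The 6DPF over fasted ratio had a median of 1.67 in the 29 genes and 2.04 in the 121, and the 6DPF over 4DPF ratio a median of 1.77 in the 29 and 1.83 in the 121. The comparison of 6DPF with fasted shares the fasted libraries with the test that divided the genes, so these medians are given without a test. None of the 7 genes in the 2 close-knit sets was called at 1DPF against fasted. Of all tested genes 9.58% were called higher and 9.66% lower, so most were not called either. The 1DPF libraries of the 7 genes differed 1.74- to 3.11-fold, and nothing is read from the lack of calls.

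**Figure D4:**
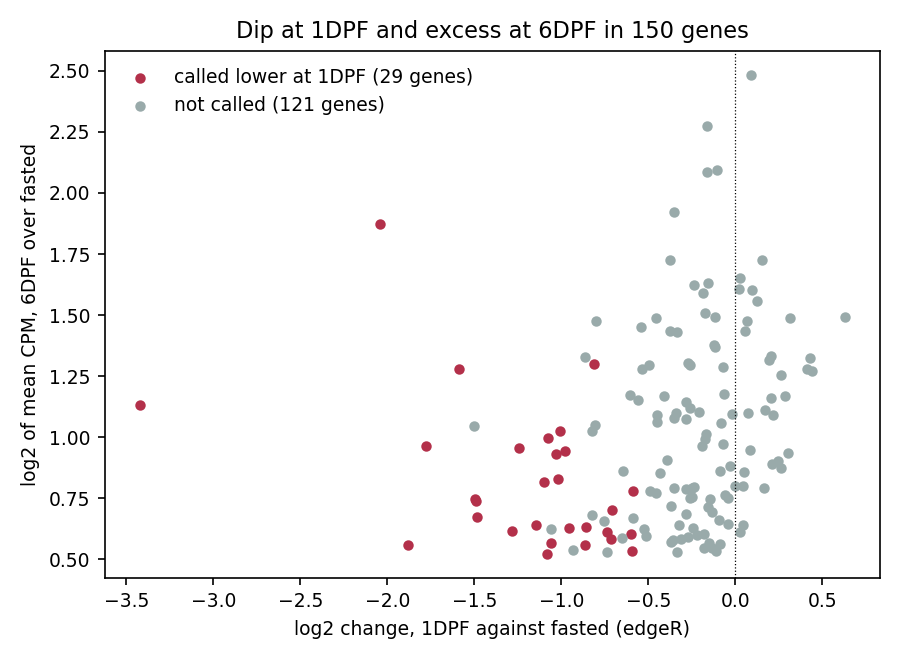
Log2 change at 1DPF against fasted (x axis, edgeR) and log2 ratio of mean CPM, 6DPF over fasted (y axis), for the 150 genes. Red points are the 29 genes called lower at 1DPF and grey points the other 121. Both axes use the fasted libraries, and no gene called lower has a log2 change nearer to 0 than -0.59.

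From 1DPF to 4DPF, 21 of the 150 genes rose (14.0%), where 3.96% of all tested genes did (edgeR adjusted p under 0.05). None fell, where 2.20% of all tested genes did, and 0 had an unadjusted p under 0.05 in that direction by edgeR, with 0 called by DESeq2. The median log2 change was 0.33 over the 150 genes and -0.02 over all tested genes. This comparison shares the 1DPF libraries with the one before, and here too the rule used both groups. It held 1DPF below 6DPF and 4DPF near fasted, which keeps out genes high at 1DPF, so the direction is largely fixed by the choice of genes and nothing is read from these shares. Among the 29 genes that were lower at 1DPF, 19 passed the test for this rise. The low 1DPF values that singled out the 29 enter this rise again, and the rule held 4DPF near fasted. The matching share over all tested genes was not taken, so the count of 19 is description only. The 21 calls depended on single libraries, as edgeR called fewer of the 150 genes with any 1 library left out. The share of all tested genes called in those fits was not counted, so the fall is not read as particular to the 150. With all libraries 48 of the 150 genes had an unadjusted p under 0.05 for this rise by edgeR. DESeq2 called 35, and its share over all tested genes was not counted.

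The lowest group mean was that of 1DPF in 108 of the 150 genes, of fasted in 24 and of 4DPF in 18. The rule held 4DPF near fasted but set no lower limit at 1DPF, which favours 1DPF as the lowest group. The share over all genes was not counted, so these counts are description only. The 24 genes lowest in fasted ventricle had group medians of 4.85 CPM (fasted), 5.57 CPM (1DPF), 5.61 CPM (4DPF) and 10.5 CPM (6DPF). For the 18 genes lowest at 4DPF the group medians were 8.83, 9.31, 7.62 and 18.9 CPM. In both of these smaller sets the medians of the first 3 groups were nearer to one another than to that of 6DPF. No gene in either set was called at 1DPF against fasted, where 9.58% of all tested genes were called higher and 9.66% lower. The grouping by lowest mean and the rule largely fix this, so nothing is read from it. The second highest mean was that of 4DPF in 68 genes, of fasted in 66 and of 1DPF in 16. Which group came lowest or second rests on means over 2 libraries, without a test.

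The comparisons that the rule itself used are given for completeness. Against 1DPF, 107 of the 150 genes were called higher at 6DPF by edgeR, where 11.3% of all tested genes were. Against fasted 2 were called, where 0.365% of all tested genes were, and against 4DPF 3 were called, where 0.053% were. At an unadjusted p under 0.05, 138, 118 and 122 of the 150 were higher at 6DPF than at 1DPF, fasted and 4DPF. DESeq2 called 127, 70 and 67 of the 150 higher in these comparisons, so the counts against fasted and 4DPF depend on the tool. Over all genes DESeq2 called 4312, 780 and 731 in either direction. With the replicate number as a block edgeR called 0 genes of the whole table for 6DPF over or under 4DPF, where 2659 had an unadjusted p under 0.05, so the 3 calls were lost. None of the 150 was called lower at 6DPF, where 10.4%, 0.0471% and 0.0353% of all tested genes were against 1DPF, fasted and 4DPF, and 0 had an unadjusted p under 0.05 in that direction by edgeR or a call by DESeq2. At 4DPF against fasted none was called in either direction, where 4.54% of all tested genes were called higher and 4.02% lower, with 7 higher and 1 lower at an unadjusted p under 0.05 and 1 called higher by DESeq2. Nothing is read from these counts, as the genes were chosen on the same values.

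The excess was also read in a 6DPF library that took no part in the choice. The other 6 libraries did take part, since the rule chose them as low beside the kept 6DPF library, and a further library tends to exceed values chosen for being low. The shares below are therefore a description and no independent test. With 6DPF replicate 1 left out, the rule took 217 genes, and in 155 of them (71.4%) the left-out library lay above all 6 libraries of the other groups, against 21.7% of the 11598 genes at the minimum level. It was at least 0.5 above every other group mean in 94 genes (43.3%), against 3.55%. With 6DPF replicate 2 left out, the rule took 323 genes, and the left-out library lay above all 6 in 187 (57.9%), against 14.8%, and at least 0.5 above every other group mean in 88 (27.2%), against 2.34%. The same reading for genes raised at 4DPF only gave 42 of 109 genes (38.5%), against 10.6%, and 76 of 154 (49.4%), against 8.75%. The median margin of the left-out library was 0.44 and 0.27 on the log2(CPM + 1) scale at 6DPF, smaller than the 0.67 over the 150 genes, whose margins include the values that chose them.

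Same-numbered 4DPF and 6DPF libraries resembled each other, which bears on how independent these libraries are. Over all tested genes the difference of replicate 2 from replicate 1 correlated at 0.48 between 4DPF and 6DPF, and over the 150 genes at 0.38. The labels do not say what the numbers share. In the 150 genes the median excess of 6DPF over 4DPF was 0.81 for the replicate 1 pair and 0.75 for the replicate 2 pair, and 0.79 and 0.78 when 6DPF replicates 1 and 2 were set against the 4DPF library of the other number. Every one of the 150 differences was above 0 in all 4 pairings, which the rule ensures.

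The 150 genes had a shorter median length than expressed genes in general. It was 2087 bases in the deposited table, against 2904 over the 11787 genes at the minimum level, and 2114 in the 56 genes raised at 4DPF only. Of the 150, 27 (18%) were under 1000 bases, against 8.42% at the minimum level and 8 (14.3%) of the 56 genes raised at 4DPF only. A further 14 of the 150 (9.33%) were at least 5000 bases, against 18.9% at the minimum level. Genes are not independent replicates and no test was made. The share of each library's reads on genes under 1000 bases was 12.4% in each fasted library. It was 10.8% and 11.7% in the 1DPF libraries, 12.5% and 13.5% in the 4DPF libraries and 11.9% and 14.2% in the 6DPF libraries. The highest share was that of 6DPF replicate 2 and the next that of 4DPF replicate 2. The part of this share in the length difference was not tested. The 150 genes were also less abundant, with a median of 17.9 CPM at 6DPF against 26.6 at the minimum level, and the part of abundance in the length difference was not tested. Within the 150, the median ratio of 6DPF over fasted was 2.15 in the 27 genes under 1000 bases, 1.91 in the 109 between and 1.77 in the 14 genes of at least 5000 bases. In the same order it was 2.00, 1.82 and 1.65 for 6DPF over 4DPF, and 2.82, 2.33 and 2.48 for 6DPF over 1DPF. The genes under 1000 bases include the 4 short genes described above. These ratios use the values on which the genes were chosen and are description only.

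**Figure D5:**
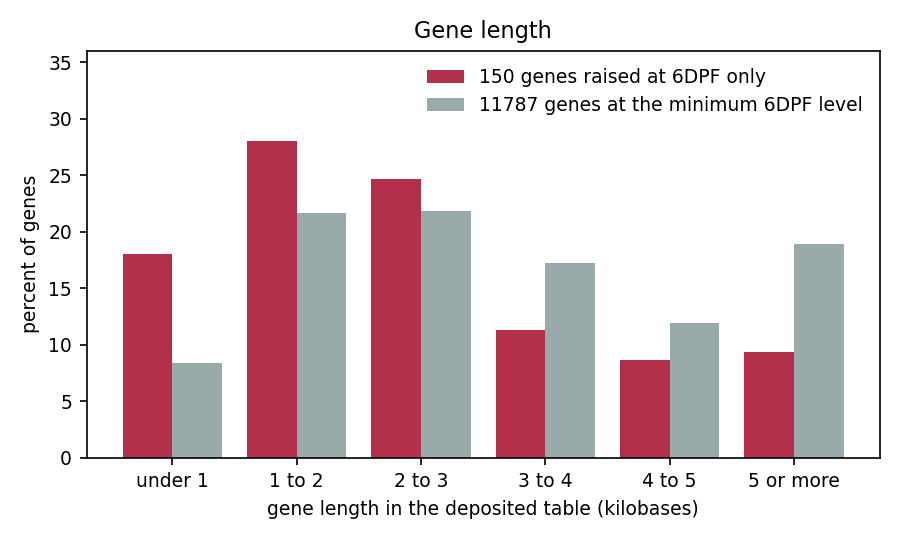
Share of genes (y axis, percent, from 0) by length in the deposited table (x axis, kilobases) for the 150 genes raised at 6DPF only (red) and the 11787 genes at the minimum 6DPF level (grey). Under 1 kilobase the shares are 18% and 8.42%, and at 5 kilobases or more 9.33% and 18.9%.

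By abundance, 17 of the 150 genes averaged over 100 CPM at 6DPF, 93 between 10 and 100 CPM and 40 under 10 CPM. The median ratio of 6DPF over fasted was 1.82, 1.91 and 2.14 in these bands. Both the bands and the ratio use the 6DPF values on which the genes were chosen. The margin was set with a pseudocount, so the rule required a larger CPM ratio from genes of low level. These ratios are therefore description only. The 17 most abundant included the 4 short genes, 3 of which had the highest ratios in that band, 4.25 to 4.84. At 1DPF, 3 of the 17, 23 of the 93 and 3 of the 40 genes were called lower than fasted, where 9.66% of all tested genes were. The share over all genes was not taken by band, and the rule used both groups, so no difference between the bands is read.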

How the data were processed

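RNA was measured in 8 left ventricle libraries. The deposited table holds the authors' raw counts of reads for each gene, beside the gene's length. The submitters' processing notes name HISAT2 2.1.0, featureCounts, SAMtools 1.8, Trimmomatic 0.36 and DESeq2 1.36.0 without their settings. Build, annotation, strand setting and the treatment of multi-mapping reads were not given in the sources used here, so counts of overlapping, antisense and near-identical genes are uncertain. Count columns were matched to samples by their description labels, and groups and replicate numbers were taken from the titles.

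The 150 genes were chosen on CPM from column totals, as stated in the report. The members and gene lists were chosen with earlier results of these data known. The 42 fixed gene lists could not be matched to numeric identifiers and were not analysed here, which also leaves the planned counts over lists undone. Changes were tested with edgeR 4.0.16 (R 4.3.3): filterByExpr (minimum count 10, minimum total 15) kept 16986 genes, TMM factors scaled the counts, and glmQLFit and glmQLFTest were fitted on all 8 libraries with group as the sole term, leaving 4 residual degrees of freedom. Two-sided p-values were adjusted by Benjamini-Hochberg over the 16986 genes, and a gene was called under 0.05. Standard errors came from the log2 change and the F statistic. CPM values are not TMM scaled, and log2(CPM + 1) understates changes of low genes. The edgeR and DESeq2 fits were tested on simulated counts with changes set at 1DPF.

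Replicates of a group were not duplicates of 1 library, as chi-square per degree of freedom ran from 48.6 to 67.6. Genes given by number were those with the most reads at 6DPF and the widest gap, by the preset rule, which allowed 2 without a name table. The 2 with the deepest fall at 1DPF, and genes referred to by length, were singled out after their values were seen. Alternatives were DESeq2 1.42.0, RLE factors, no filter, the replicate number as a block, each library left out in turn and, for the choice of genes, other pseudocounts, scalings and thresholds. A block with crossed 1DPF numbers was added after the data were seen.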

Additional observations from a re-analysis of the deposited data

How the results depend on the processing

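The 150 genes became 158 with a pseudocount of 0.5 and 148 with one of 2 (145 and 130 shared with the 150). Scaling by TMM or DESeq2 size factors left 115 and 114 genes, of which 114 and 113 were among the 150. With column totals the median tested gene stood 0.067 higher at 6DPF than 4DPF, 0.044 higher than fasted and 0.020 higher than 1DPF on the log2 scale, and which criterion lost the genes was not tested. A margin of 1 left 28 genes, no minimum level gave 232 and no bound on 4DPF gave 212. With 1 library left out the rule took 135 to 323 genes, most without 6DPF replicate 2.

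With 1 library left out, 10 to 29 of the 150 genes were called lower at 1DPF than fasted, and 0 to 16 higher at 4DPF than 1DPF, where DESeq2 called 35. None of the 150 was called in the opposite direction in these 2 comparisons under the alternatives run, which the choice of genes largely fixes. With a replicate block these counts were 27 and 17, and with crossed 1DPF numbers the second was 25. For gene 103055246, which was not called, the log2 change was 0.037 at 1DPF against fasted without fasted replicate 1 and 0.12 at 4DPF against 1DPF without 4DPF replicate 1, against -0.18 and -0.11 with all libraries. Over the libraries left out the first ran from -0.33 to 0.037 and the second from -0.37 to 0.12. For gene 103051103 the rise at 4DPF missed the threshold without 1DPF replicate 2 (log2 change 2.86, edgeR adjusted p = 0.0501).

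Over all genes, 70, 3683 and 15 were called for 6DPF against fasted, 1DPF and 4DPF. DESeq2 called 780 and 731 for the first and the last, and no filter gave 135 and 33. The replicate block left 0 calls in the last (edgeR, 2659 genes with an unadjusted p under 0.05). With 1 library left out the 3 counts ran from 0 to 118, from 1838 to 3385 and from 0 to 11. For the first, 0 was reached without either fasted or either 6DPF library (1452 to 2707 at an unadjusted p under 0.05). For the last, 0 was reached without either 6DPF library (2124 and 2429). Their cause was not tested. The replicate differences correlated at 0.48 between 4DPF and 6DPF, -0.34 between 1DPF and 4DPF and -0.20 between 1DPF and 6DPF over all tested genes, and at -0.10 to 0.05 in the other pairs. Each group has only 2 libraries.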
